A study of Mus musculus with 21 samples.

Results

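Mouse hematopoietic stem cells (HSCs) with a signal from an autophagy reporter were compared with HSCs without it, from mice of the same reporter genotype. The comparison used 9 of the 21 libraries of the series: 6 reporter-positive libraries, of which 3 were RFP single positive and 3 were RFP and GFP double positive, against 3 double negative libraries. The members were chosen by these sort labels and by no measured value. All 9 came from freshly isolated bone marrow of untreated mice of genotype RFP-EGFP-LC3, sorted as CD48- LSK CD150+ cells, LSK being lineage-negative cells with Sca-1 and Kit on their surface. The other 12 libraries came from wild-type or Atg5-deficient mice given bortezomib or DMSO and serve here only as a reference without the reporter. The sources used here do not name the age, the sex, the promoter of the transgene or the number of animals per library. Since no label says that libraries came from separate animals, each p-value measures only the spread between these samples.

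LC3 is a small ubiquitin-like protein that is conjugated to lipid on the growing autophagosome and is carried with it to the lysosome. In the reporter it is fused to a red (RFP) and a green (EGFP) fluorescent protein. EGFP fluorescence is quenched in the acid lysosome while RFP fluorescence persists, so cells with RFP alone hold mostly LC3 that has reached lysosomes and cells with both colours also hold LC3 in autophagosomes. HSCs depend on autophagy to clear mitochondria and protein aggregates and to stay quiescent. The comparison therefore set cells with a visible LC3 reporter against cells in which it was not seen.

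One of the 2 called genes was itself an LC3 sequence. Gm6054 (ENSMUSG00000057157.3, GRCm38, chr5:147408982-147409359, + strand) is a processed pseudogene of Map1lc3b, the gene for LC3B. Over all 378 of its bases it is 98.148% identical to the coding sequence of Map1lc3b. The sequences are shown because reads from one could be counted on the other. They come from GENCODE M21 (GRCm38) and cover bases 31 to 180, counted from 1 at the A of the start codon, with capitals at 6 of the 7 bases that differ.
Map1lc3b coding sequence: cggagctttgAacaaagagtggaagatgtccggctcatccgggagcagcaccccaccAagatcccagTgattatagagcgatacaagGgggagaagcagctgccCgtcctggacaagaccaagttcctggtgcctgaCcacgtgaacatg
Gm6054: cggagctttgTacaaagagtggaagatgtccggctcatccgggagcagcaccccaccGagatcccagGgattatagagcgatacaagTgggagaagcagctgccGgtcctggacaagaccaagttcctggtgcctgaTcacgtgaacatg
With the base of Map1lc3b first, the differences over the whole length are A41T, A88G, T98G, G118T, C135G, C168T and T303C.

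Gm6054 was present in every reporter-positive library and lower in each double negative one. In CPM, counts divided by the TMM-scaled library size and expressed on a common scale, it stood at 13.3, 11.4 and 18.9 in RFP single positive libraries 1 to 3, at 9.08, 6.86 and 8.59 in double positive libraries 1 to 3, and at 0.397, 0.0817 and 1.05 in double negative libraries 1 to 3. All 6 positive libraries lay above all 3 double negative ones. Gm6054 rose in reporter-positive cells by 4.66 on the log2 scale, with an SE of 0.58 (edgeR, adjusted p = 0.0369). Double negative libraries 1 to 3 held 8, 2 and 19 counts of it, so it passed the filter on low counts only through the positive libraries. Its fold and its call are therefore no test of a difference. A floor of 3 counts in a library corresponds to 0.123 to 0.166 CPM, so double negative 2 lies under that floor and double negative 3 well above it. In the 12 libraries of mice without the reporter, scaled together with these 9, Gm6054 ran from 0.0443 to 0.867 CPM with a median of 0.228.

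Map1lc3b itself (ENSMUSG00000031812.16, chr8:121590361-121598760, + strand) was not called. It stood at 470, 394 and 426 CPM in the RFP single positive libraries, at 506, 445 and 439 CPM in the double positive ones and at 579, 254 and 403 CPM in the double negative ones, which overlap (log2 fold change 0.17, SE 0.16, unadjusted p = 0.308). A search of the annotated pseudogenes at 90% identity over at least 90% of the coding sequence gave 5 matching Map1lc3b, and these were chosen after the call of Gm6054 was seen. Gm5612 (chromosome 9, 96.533% identical) ran from 1.45 to 5.27 CPM in positive libraries and stood at 0.546, 0.123 and 0.499 in the double negative ones, with no overlap (log2 fold change 2.94, unadjusted p = 0.00412, adjusted p = 0.172). Gm11949 (chromosome 11, 93.915% identical) ran from 0.835 to 3.52 CPM against 0.0497, 0.163 and 0.665, also with no overlap (log2 fold change 3.15, unadjusted p = 0.0109, adjusted p = 0.202). Like Gm6054, Gm5612 and Gm11949 passed the filter on low counts only through the positive libraries. Their folds and p-values are therefore no test of a difference. In mice without the reporter these pseudogenes reached at most 0.415 and 0.210 CPM.

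The other matches to Map1lc3b did not separate the groups. Gm6055 (99.735% identical, the closest copy) ran from 4.62 to 7.15 CPM in positive libraries against 8.89, 3.11 and 3.10, and was at 1.86 to 5.30 CPM in mice without the reporter. Gm12727 (98.611% identical over 360 bases) ran from 0.269 to 1.19 CPM against 0.248, 0.286 and 0.222. Among the base differences from Map1lc3b, C168T is carried by Gm6054, Gm5612, Gm11949 and Gm12727 and not by Gm6055, and T303C by Gm6054 and Gm11949. The same search gave 4 counted pseudogenes of Gabarapl2, another member of the family, and in 0 of them did all positive libraries lie above the double negative ones. Because the copies are near-identical, their split of reads is uncertain, and whether any of these reads came from the reporter transgene was not tested.

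**Figure D1:**
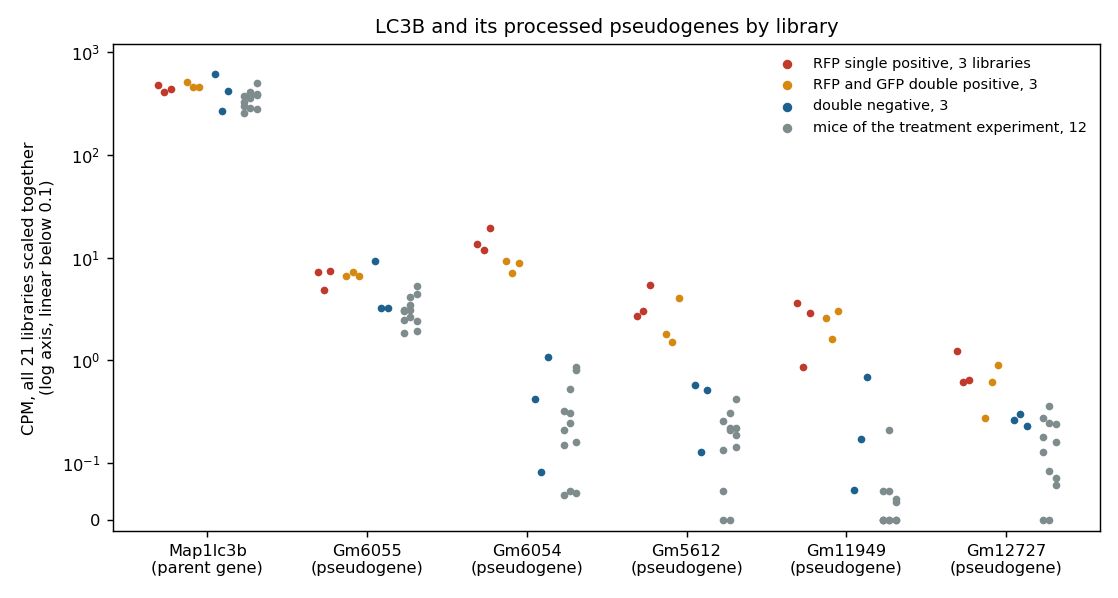
Level in CPM, on a log axis that is linear below 0.1, of Map1lc3b and its 5 processed pseudogenes in each of the 21 libraries, with all libraries scaled together and 1 point per library. Positive libraries of Gm6054, Gm5612 and Gm11949 lie above the double negative libraries and above the 12 libraries of mice without the reporter, while Map1lc3b and Gm6055 overlap.

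Totals of the 9 libraries ran from 17779871 to 25529212 counts and 16095 to 18094 genes were detected in each. In principal components of log2 CPM, 3 libraries stood apart: double negative 1 (118 on component 1), double positive 2 (95.3 on component 2) and double positive 1 (-95.6 on component 3). The share of Xist among counts of Xist and Ddx3y was 99.9%, 97.4% and 88.1% in the libraries numbered 2 and at most 10.2% elsewhere, so the replicate number went with a marker of sex. The share also differed within a number. In single positive, double positive and double negative libraries it was 0%, 0% and 10.2% for number 1, and 5.45%, 0.782% and 0% for number 3. The difference between positive and double negative libraries also moved with transcript length. Its median was -0.31 (log2) in the 10% of genes with the shortest transcripts and 0.33 in the 10% with the longest (Spearman rho 0.32 across 15319 genes, which are not independent and share the same libraries). Against the other libraries, double negative 1 leaned to short transcripts (rho -0.40), and single positive 2 (0.37) and double positive 3 (0.37) leaned to long ones. Medians of gene lists are therefore also given from a fit with length and GC offsets, which brought that rho to -0.011, where the offsets moved them by more than 1.5 times. What share of any difference follows from this trend was not tested.

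**Figure D2:**
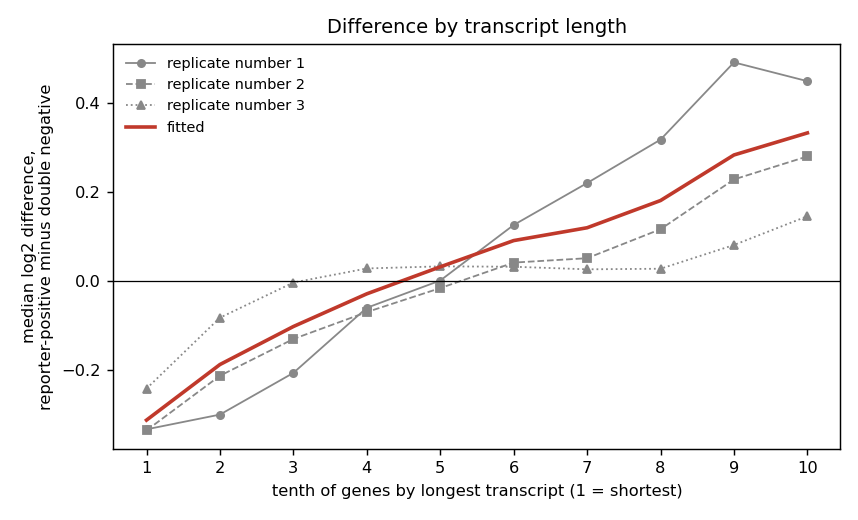
Median log2 difference between reporter-positive and double negative libraries for genes in 10 bins of equal size by longest transcript, from the fit (red) and within each replicate number (grey). The fitted median climbs from -0.31 to 0.33, and replicate number 3 shows the smallest span.

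Of 15375 genes tested, 2 were called (0.013%), both higher in reporter-positive cells: Gm6054 and Vwf. No gene fell. At an unadjusted p under 0.05, 1482 genes were higher (9.64%) and 995 were lower (6.47%), and all 6 positive libraries lay above all 3 double negative ones for 432 genes (2.81%) and below them for 306 (1.99%). The Wald test of DESeq2 called 431 genes higher and 350 lower, edgeR without a filter on low counts called 211 and 108, and limma voom with quality weights called Vwf and Plac8. With the length and GC offsets, 44.6% of genes at an unadjusted p under 0.05 were higher, against 59.8% without them. With double positive 1, double positive 2 and double negative 1 left out together, 9 genes were called, 7 higher and 2 lower, Vwf and Gm6054 among them.

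Vwf (ENSMUSG00000001930.17, chr6:125546774-125686679, + strand) encodes von Willebrand factor, a blood-clotting protein made by megakaryocytes and endothelium that also marks platelet-biased HSCs. It stood at 83.8, 87.6 and 80.2 CPM in single positive libraries 1 to 3, at 74.1, 124 and 84.6 CPM in double positive libraries 1 to 3, and at 22.8, 19.04 and 27.8 CPM in double negative libraries 1 to 3. Every positive library exceeded every double negative library by a wide margin, and the positive groups overlapped. Vwf rose in reporter-positive cells by 1.93 on the log2 scale, with an SE of 0.21 (edgeR, adjusted p = 0.0232), and by 1.79, 2.44 and 1.57 within replicate numbers 1, 2 and 3. In the mice without the reporter it was at most 78.0 CPM with a median of 34.7, so the double negative libraries all lay below that median.

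The calls of Vwf and Gm6054 were near the threshold, and Gm6054 was tested only through the positive libraries, as given above. With the positive libraries of each replicate number summed, neither was called (adjusted p = 0.189 for Vwf and 0.293 for Gm6054), and with a random replicate effect in limma voom Gm6054 was not (adjusted p = 0.175). For Vwf the adjusted p was 0.124, 0.0984 and 0.0545 without single positive 1, 2 or 3, 0.0520 and 0.0777 without double positive 1 or 3, 0.105 and 0.0993 without double negative 1 or 2, and 0.135 with the length and GC offsets. For Gm6054 it was 0.127, 0.140 and 0.0851 without single positive 1, 2 or 3, 0.126, 0.0573 and 0.0777 without double positive 1, 2 or 3, and 0.153 and 0.0993 without double negative 1 or 2. The log2 fold changes without 1 library stayed between 1.68 and 2.11 for Vwf and between 4.11 and 5.46 for Gm6054. With the length and GC offsets that of Vwf was lower, at 1.37, and at 1.59 with double negative 1 also left out. The longest transcript of Vwf has 8834 bases, which places it in the 10% of genes with the longest transcripts. For Gm6054 the offsets gave 4.87.

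Of 20 tested genes of platelet-biased HSCs and megakaryocytes, Vwf included, 4 were higher and 1 lower at an unadjusted p under 0.05, against 9.64% higher and 6.47% lower among all genes. In all, 15 lay above 0, 2 had all positive libraries above the double negative ones (2.81% of all genes), and the median log2 difference was 0.17 against 0.04 for all genes. Clu, which encodes the secreted chaperone clusterin, stood at 38.9, 34.7, 49.3, 63.3, 50.7 and 50.2 CPM in the positive libraries and at 33.8, 30.1 and 20.7 CPM in the double negative ones (log2 difference 0.75, adjusted p = 0.176). These groups did not overlap, but by a margin of less than 1 CPM. Mmrn1, for the platelet protein multimerin 1, ran from 330 to 507 CPM against 203, 246 and 361 CPM, with overlap only through double negative 3 (log2 difference 0.57, adjusted p = 0.171).

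The libraries carried the transcripts of sorted HSCs. All 11 HSC markers, among them Procr, Slamf1 (CD150), Mecom and Hlf, were detected in every library, with a lowest value of 6.26 CPM (Fgd5) in any of them. Of the 34 genes of the HSC identity list, 15 were higher and 1 was lower in reporter-positive cells at an unadjusted p under 0.05, against 9.64% and 6.47% of all genes, and none was called. The median of the list was 0.37 against 0.04 for all genes, and by replicate number it was 0.22, 0.62 and 0.11. Without double negative 2 the median was 0.22, with 6 higher and 0 lower, and with the length and GC offsets it was 0.28, with 10 higher and 1 lower. Genes named here within the lists were picked after their values were seen, other than those given by the rule in the processing notes.

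Robo4, a guidance receptor that helps to anchor HSCs in the marrow, stood at 38.2, 42.5, 46.4, 37.8, 65.4 and 44.4 CPM in the positive libraries and at 18.6, 19.3 and 34.0 CPM in the double negative ones. The groups did not overlap, and the log2 difference was 0.95 (adjusted p = 0.164). Erg, an ETS transcription factor needed for HSC maintenance, ran from 16.0 to 24.7 CPM against 8.45, 9.11 and 12.7 CPM (log2 difference 0.88, adjusted p = 0.165). Its difference was alike in the 3 replicate numbers, at 0.92, 0.85 and 0.85. Nkx2-3, a homeobox factor, and Sult1a1, a sulfotransferase of the long-term HSC signature, also had all positive libraries above the double negative ones, with log2 differences of 0.60 and 0.53.

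Other stem cell regulators overlapped through double negative 3, whose values lay near those of the positive libraries. Hlf ran from 260 to 434 CPM in positive libraries and stood at 214, 191 and 295 CPM in the double negative ones (log2 difference 0.60, adjusted p = 0.175). Mecom, which encodes the factor Evi1, ran from 84.4 to 174 CPM against 57.3, 57.0 and 113 CPM (log2 difference 0.79, adjusted p = 0.185). Gata2 ran from 288 to 418 CPM against 207, 211 and 326 CPM. Kit, the stem cell factor receptor by which the cells were also sorted, ran from 611 to 1067 CPM against 214, 341 and 891 CPM (log2 difference 0.83, adjusted p = 0.192). Within replicate number 3 the Kit difference was -0.045.

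Among surface markers of HSCs, Slamf1 ran from 36.0 to 54.6 CPM against 29.8, 30.8 and 44.9 CPM (unadjusted p = 0.0958), and Procr from 101 to 157 CPM against 152, 77.4 and 99.4 CPM (unadjusted p = 0.253). Cd34, which is low on the most quiescent mouse HSCs, was the 1 list member lower at an unadjusted p under 0.05: it ran from 312 to 500 CPM in positive libraries against 461, 655 and 604 CPM (log2 difference -0.47, adjusted p = 0.192).

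Some transcripts of committed progenitors, picked after their values were seen, were lower in reporter-positive cells, none of them called. Cd48, the marker that the sort selects against, stood at 1.85, 8.20 and 15.9 CPM in single positive libraries 1 to 3, at 8.17, 10.3 and 12.5 CPM in double positive libraries 1 to 3 and at 21.1, 54.1 and 17.7 CPM in double negative libraries 1 to 3. The positive and double negative libraries did not overlap (log2 difference -1.80, adjusted p = 0.164). Cd33, a myeloid sialic acid receptor, was at most 0.313 CPM in positive libraries, with 0 counts in 3 of them, and stood at 1.64, 3.96 and 0.942 CPM in the double negative ones. Cd33 passed the filter on low counts only through the double negative libraries. Its difference and its part in the counts of a list are therefore no test of a difference. Ms4a3, a granulocyte-monocyte progenitor gene, ran from 0.215 to 3.83 CPM against 4.17, 6.95 and 5.26 CPM. Plac8, which is expressed in progenitors more than in dormant HSCs, had the smallest p among lower genes (log2 difference -1.22, unadjusted p = 2.24e-05, adjusted p = 0.115), yet its libraries overlapped, at 69.2 to 183 CPM against 179, 395 and 305 CPM. In bulk libraries such as these, fewer cells of a type and less RNA per cell cannot be told apart.

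As a whole the myeloid and committed progenitor list had 3 of 13 tested members lower and 0 higher at an unadjusted p under 0.05, against 9.64% higher and 6.47% lower among all genes, with a median of -0.62. Of the 13, 9 lay below 0 and 4 above, the highest being Irf8, a monocyte lineage factor, at 0.38 (unadjusted p = 0.387). The summed level of the list overlapped between the groups, at 1125 to 1474 CPM in positive and 1219 to 1551 CPM in double negative libraries, and its median was -0.06 without double negative 2. Ctsg was at 0 in all 9 libraries. Erythroid genes summed to 2763 to 3589 CPM in positive against 2014 to 3764 CPM in double negative libraries. Lymphoid-primed progenitor genes summed to 187 to 273 against 235 to 309 CPM, with Il7r and Rag1 at 0. Neutrophil genes summed to 10.7 to 34.4 CPM in positive against 21.6 to 59.0 CPM in double negative libraries, with Mmp8 at 0, and monocyte and macrophage genes to 575 to 907 against 712 to 1003 CPM. The positive groups differ within these lists, as given with the comparison of single and double positive cells. T and NK cell genes summed to 74.4 to 147 against 144 to 203 CPM, with Cd3e, Cd3g, Cd8a, Cd8b1, Gzma and Klrd1 at 0. Of the 14 genes of this list 4 were tested. Nkg7, described below, is one of them and made up most of the sum. It alone stood at 55.5 to 122 CPM in positive libraries against 123, 178 and 191 CPM in double negative ones. Mast cell and basophil genes, of which 2 of 10 were tested, summed to 1.13 to 10.7 against 10.3 to 12.6 CPM, with Cma1, Mcpt8, Prss34 and Tpsab1 at 0. B cell genes summed to 192 to 507 against 195 to 358 CPM, with Ighd, Igll1, Ms4a1 and Pax5 at 0. Of the 12 B cell genes 6 were tested, at log2 differences of -0.35 to 6.88. Endothelial and stromal genes, a list that counts here because endothelium also makes Vwf, Robo4 and Erg, summed to 83.3 to 106 against 71.2 to 98.0 CPM, with Cdh5, Col3a1, Lepr and Pdgfra at 0. Of 10 tested, 2 were higher and 0 lower and 9 lay above 0, with a median of 1.16, of 0.73 with the offsets and of 0.31 without double negative 1. The members at 0 are named because they had no counts and do not stand for the rest of each list. The part of these lists in the other differences was not tested.

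**Figure D3:**
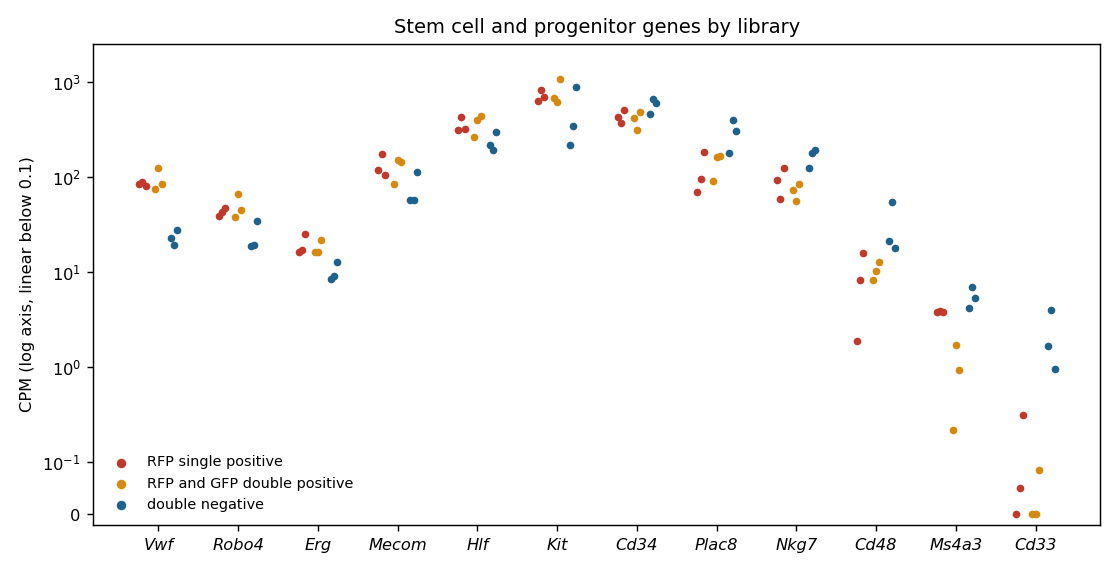
Level in CPM, on a log axis that is linear below 0.1, of stem cell and progenitor genes in the 9 reporter libraries, 1 point per library in the order of replicate numbers 1 to 3 from left to right. Vwf, Robo4 and Erg lie higher and Nkg7, Cd48, Ms4a3 and Cd33 lower in all positive libraries than in all double negative ones, and Mecom, Hlf, Kit, Cd34 and Plac8 overlap.

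Besides Vwf, the 9 protein-coding genes with the smallest p among those whose positive libraries all lay above the double negative ones were Ppp1r10, Sfrp1, Furin, Mib2, Edem3, Pik3r1, Ep300, Tns2 and Edc4. None was called (adjusted p = 0.164 for each), and the list shows the order of the data rather than a set of changed genes. Their longest transcripts have 3642 to 9566 bases, all above the median of 2980 bases for all genes. This is the direction of the length trend, and its part in these differences was not tested. Sfrp1, a secreted antagonist of Wnt ligands, stood at 17.6, 14.6, 17.2, 13.4, 14.9 and 16.4 CPM in positive libraries and at 5.91, 2.86 and 5.48 CPM in double negative ones (log2 difference 1.77, SE 0.31). Tns2, a focal adhesion protein, ran from 35.2 to 72.8 CPM against 9.79, 15.1 and 29.6 CPM (log2 difference 1.55). Edem3, which trims mannose from misfolded glycoproteins in the endoplasmic reticulum (ER), ran from 10.4 to 24.0 CPM against 4.47, 7.07 and 7.20 CPM. Pik3r1, the regulatory subunit p85 alpha of phosphoinositide 3-kinase, had the smallest fold but close values between replicate numbers, at 0.82, 0.72 and 0.65. Ep300, a histone acetyltransferase, and Furin, a proprotein convertase, differed by 1.35 and 1.24 (log2).

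The 10 genes with the smallest p among those below the double negative libraries were Nkg7, Higd1a, Gnpnat1, Psmc6, S100a6, Tomm20, Serpinb1a, Hcst, Asf1a and Tm6sf1, also at an adjusted p of 0.164 each. All but Tomm20 and Tm6sf1 have transcripts shorter than the median of 2980 bases, at 442 to 2788 bases. That too is the direction of the length trend. Nkg7, a membrane protein of cytotoxic granules that is also found in hematopoietic progenitors, stood at 92.1, 58.5, 122, 72.7, 55.5 and 84.2 CPM in positive libraries and at 123, 178 and 191 CPM in double negative ones (log2 difference -1.06, SE 0.19). Hcst, the signalling adaptor DAP10, ran from 17.6 to 26.8 CPM against 43.8, 67.4 and 35.8 CPM (log2 difference -1.09). Higd1a, a hypoxia-induced protein of the inner mitochondrial membrane, ran from 53.4 to 74.1 CPM against 127, 138 and 89.2 CPM. Tomm20, a receptor of the mitochondrial protein import complex, ran from 84.8 to 116 CPM against 175, 214 and 125 CPM. In all of these but Nkg7, double negative 2 was the highest of the 9 libraries. Double negative 3 was the one nearest to the positive libraries in all but Nkg7 and Serpinb1a.

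**Figure D4:**
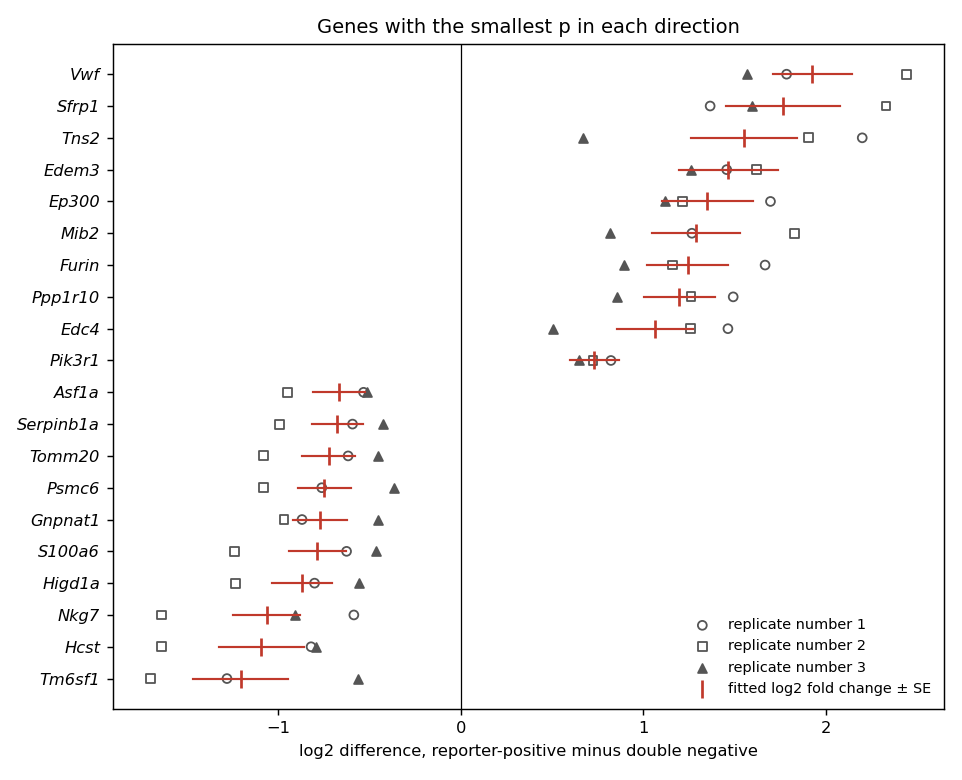
Log2 difference between the positive libraries and the double negative library of each replicate number (symbols) with the fitted log2 fold change and its SE (red) for the 10 genes of smallest p in each direction with groups that do not overlap. The 3 differences of each gene have 1 sign, and only Vwf was called.

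Autophagy genes were ordered by the step they serve. Among 13 genes of initiation and nucleation, 4 were higher and 0 lower at an unadjusted p under 0.05, against 9.64% higher and 6.47% lower among all genes (median 0.41, and 0.27 with the length and GC offsets), and 0 were called. The same shares of all genes apply to the other lists of autophagy and lysosome genes. Ulk1, the kinase that starts autophagosome formation, stood at 64.8, 47.3, 62.8, 52.0, 56.0 and 76.4 CPM in positive libraries and at 16.1, 29.2 and 43.4 CPM in double negative ones. Its groups did not overlap (log2 difference 1.08, SE 0.24, adjusted p = 0.164). Zfyve1, a phosphoinositide-binding protein that marks sites of autophagosome formation on the ER, ran from 7.79 to 13.2 CPM against 3.58, 3.23 and 7.26 CPM (log2 difference 1.21, adjusted p = 0.187). Rb1cc1 (FIP200) and Ambra1, partners in the initiating complexes, differed by 0.63 and 0.86 with overlap. The median of the list was 0.23 without double negative 1, 0.81 without double negative 3 and 0.25 with the 3 libraries apart left out.

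Of 19 genes of the autophagosome membrane and conjugation, 1 was higher and 1 lower (median 0.18, 0.06 with the offsets and 0.09 without double negative 1): Atg2a, a lipid transfer protein, by 1.03 and Vmp1, an ER membrane scramblase, by -0.47. The 5 LC3 and GABARAP genes had 0 in either direction, with log2 differences of 0.06 for Map1lc3a, 0.17 for Map1lc3b, 0.14 for Gabarap, 0.35 for Gabarapl1 and -0.06 for Gabarapl2. Atg5, the conjugation factor deleted in other mice of the series, ran from 87.0 to 135 CPM in positive libraries against 125, 131 and 80.3 CPM (log2 difference -0.07, unadjusted p = 0.676). The direction of Map1lc3a, Map1lc3b, Gabarapl2 and Atg5 flipped under some of the alternatives, as given in the section on processing. Of 13 genes of autophagosome-lysosome fusion, 4 were higher and 1 lower (median 0.38, and 0.19 with the offsets), and without double negative 2, 0 were higher and 1 lower.

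Among 22 autophagy receptors and aggresome factors, 5 were higher and 2 lower (median 0.18). Nbr1, a receptor for ubiquitinated cargo, ran from 54.8 to 96.1 CPM in positive libraries against 30.2, 33.1 and 77.8 CPM (log2 difference 0.83, adjusted p = 0.164), and double negative 3 lay within the positive range. Sqstm1, the receptor p62, stood at 325, 316, 370, 270, 316 and 349 CPM against 298, 260 and 318 CPM (log2 difference 0.15, unadjusted p = 0.241). Of 17 TFEB and FOXO regulators, 2 were higher and 0 lower (median 0.32, and -0.01 with the offsets). The 44 lysosomal genes had a median of 0.05, with 6 higher and 1 lower (-0.01 with the offsets, with 1 higher and 3 lower). Gaa, acid alpha-glucosidase, ran from 197 to 285 CPM against 107, 161 and 249 CPM, and Tpp1, a lysosomal peptidase, from 155 to 234 CPM against 136, 136 and 155 CPM. Cd63, a tetraspanin of late endosomes, ran from 676 to 1032 CPM against 1239, 1487 and 689 CPM.

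Proteasome genes had the most one-sided list. Of 34 subunit and assembly genes, 23 were lower and 0 higher at an unadjusted p under 0.05, against 6.47% lower among all genes, and all 34 log2 differences were below 0, with 0 called. The median was -0.43, at -0.38, -0.85 and -0.06 in replicate numbers 1, 2 and 3. It was -0.24 with the length and GC offsets, with 11 lower, and -0.22 without double negative 2, with 4 lower. Psmc6, an ATPase subunit of the regulatory particle, stood at 156, 153, 135, 129, 135 and 126 CPM in positive libraries and at 241, 305 and 168 CPM in double negative ones, without overlap (log2 difference -0.75, SE 0.14, adjusted p = 0.164). Psma7, a subunit of the core ring, ran from 583 to 822 CPM against 1100 (double negative 1), 1631 (double negative 2) and 718 CPM (double negative 3), so double negative 3 lay within the positive range (log2 difference -0.68). Psmb5, the subunit that carries the chymotrypsin-like activity and is the target of bortezomib, ran from 127 to 187 CPM against 209, 278 and 145 CPM (log2 difference -0.50, adjusted p = 0.208).

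Of 26 heat shock and cytosolic chaperone genes, 9 were lower and 2 higher at an unadjusted p under 0.05, against 9.64% higher and 6.47% lower among all genes (median -0.22). Without double negative 2 the median was -0.10, with 0 in either direction. Hspe1, the mitochondrial co-chaperonin, differed by -0.69 (adjusted p = 0.166), and by -0.29 with the offsets. Of 25 ER chaperone and unfolded protein response genes, 6 were lower and 2 higher, and 10 lay above 0 (median -0.20). Without double negative 2 the median was 0.02, with 1 lower and 2 higher. Manf, a secreted ER stress protein, ran from 117 to 156 CPM in positive libraries against 221, 283 and 157 CPM, without overlap, although double negative 3 lay next to the highest positive library. Hspa5, the ER chaperone BiP, differed by -0.52, and by -0.11 without double negative 2. In the opposite direction, Eif2ak3, which encodes the ER stress sensor kinase PERK, ran from 11.2 to 16.2 CPM against 4.42, 3.39 and 10.9 CPM, without overlap (log2 difference 1.29, adjusted p = 0.164).

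Nuclear genes of oxidative phosphorylation were also lower. Of 40 tested, 25 were lower and 0 higher at an unadjusted p under 0.05, against 9.64% higher and 6.47% lower among all genes, with 0 called and a median of -0.33. With the length and GC offsets 9 were lower and the median was -0.11, and without double negative 2, 11 were lower and the median was -0.28. Cycs, cytochrome c, ran from 62.4 to 86.7 CPM in positive libraries against 115, 180 and 84.1 CPM (log2 difference -0.71, adjusted p = 0.164). Cox7a2 and Ndufa2, subunits of complexes IV and I, had all positive libraries below the double negative ones, with log2 differences of -0.49 and -0.46, and of -0.23 and -0.19 with the offsets. The 13 protein-coding genes of the mitochondrial genome had a median of -0.29 that turned to 0.29 with the offsets. The 53 cytosolic ribosomal protein genes had a median of -0.23, and of -0.05 with the offsets. These genes have short transcripts: the median length was 1386.5 bases for the oxidative phosphorylation list and 1120 bases for the ribosomal list, against 2980 bases for all genes.

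**Figure D5:**
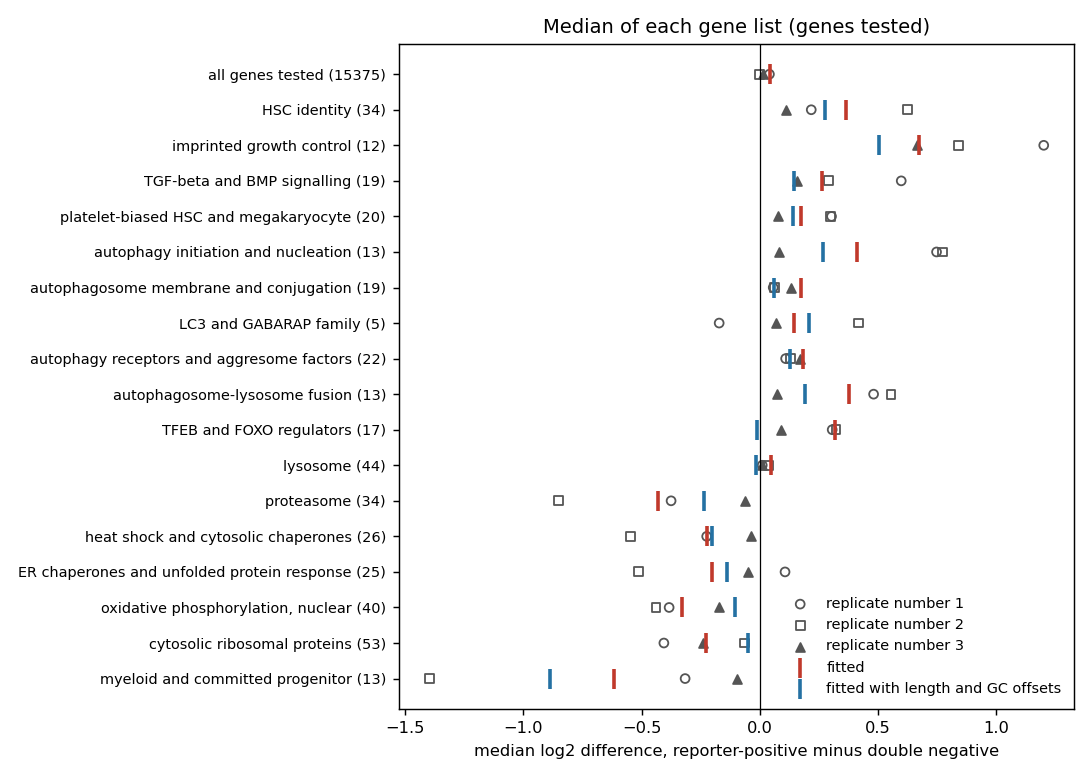
Median log2 difference of each gene list, with the number of genes tested in brackets, from the fit (red), from the fit with length and GC offsets (blue) and within each replicate number (grey symbols). HSC identity lies above and proteasome lies below all genes tested in both fits, the oxidative phosphorylation and ribosomal lists move toward 0 with the offsets, and replicate number 3 lies nearest to 0 in most lists.

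Imprinted growth control genes had 5 of 12 tested members higher and 0 lower at an unadjusted p under 0.05, against 9.64% higher and 6.47% lower among all genes, with a median of 0.67 and 0 called. Igf2, the fetal insulin-like growth factor, stood at 2.33, 1.67, 2.03, 1.45, 4.36 and 1.17 CPM in positive libraries, and the double negative libraries held 1 count in all, at a ratio of 137 (exact 95% interval 24.3 to 5417, counting error only). H19, the noncoding RNA next to Igf2, ran from 0.322 to 2.77 CPM in positive libraries and had 0 counts in all 3 double negative libraries. With the reads of each group pooled, it was at least 35.7-fold higher against a floor of 3 counts. That bound leaves out the spread between libraries. These levels are low in both groups, and the adjusted p was 0.164 for each. Both genes passed the filter on low counts only through the positive libraries. Their folds and their part in the counts of the list are therefore no test of a difference. In mice without the reporter H19 ran from 0 to 1.46 CPM and Igf2 from 0.181 to 1.21 CPM. Grb10, an adaptor that restrains growth signalling, ran from 72.2 to 121 CPM against 22.0, 68.6 and 72.7 CPM (log2 difference 0.91, adjusted p = 0.186). Of 19 genes of TGF-beta and BMP signalling, which holds HSCs in quiescence, 7 were higher and 0 lower (median 0.26, and 0.15 with the offsets), but 1 was higher without double negative 1. Smad3, a signal transducer of TGF-beta, ran from 42.1 to 57.9 CPM against 10.3, 15.1 and 51.6 CPM, with double negative 3 inside the positive range.

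The positive groups did not differ from each other in any gene at an adjusted p under 0.05 in edgeR, where 363 genes (2.36%) had an unadjusted p under 0.05. DESeq2 called 7, and limma voom called 0. Both positive groups were compared with the same double negative libraries, so their contrasts are given side by side only, with 2 genes called in single positive cells (0.013%) and 1 in double positive cells (0.0065%). Vwf had a log2 fold change of 1.85 in RFP single positive cells (adjusted p = 0.0379) and of 2.00 in double positive cells (adjusted p = 0.0381), and the positive groups differed by -0.15 (unadjusted p = 0.515). Gm6054, under the limit of the filter given above, had 5.05 in single positive cells (adjusted p = 0.0379) and 4.27 in double positive cells (adjusted p = 0.118). Its 3 single positive libraries lay above its 3 double positive ones, and the difference was 0.78 (unadjusted p = 0.147).

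Some macrophage and neutrophil genes separated the positive groups from each other, without a call. Of 14 monocyte and macrophage genes, 6 had an unadjusted p under 0.05 between single and double positive cells, against 2.36% of all genes, and all 6 were lower in single positive cells: C1qa, C1qb, C1qc, Adgre1, Vcam1 and Csf1r. C1qa, a chain of complement C1q made by macrophages, stood at 4.33, 4.17 and 8.71 CPM in single positive, at 19.2, 17.8 and 15.3 CPM in double positive and at 10.3, 19.7 and 7.53 CPM in double negative libraries. Its single and double positive libraries did not overlap (log2 difference -1.60, unadjusted p = 0.00386, adjusted p = 1.00). Of 8 neutrophil genes, 3 had an unadjusted p under 0.05, S100a8 and S100a9 lower and Mmp9 higher in single positive cells. Against the same double negative libraries, the median of the monocyte and macrophage list was -1.19 in single positive and 0.05 in double positive cells, and that of the neutrophil list -1.36 and -0.01. With both positive groups, the monocyte and macrophage median was -0.53, and 0.20 without double negative 2.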

How the data were processed

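The authors deposited whole-number HTSeq counts per gene for 47729 genes, of which 0 columns had no sample. Per the labels, RNA was extracted with an RNeasy Plus Micro kit and libraries were made with SMART-seq2. The submitters' processing notes name Bowtie 1.0.0, STAR 2.6.1, HTSeq 0.7.1 and the builds GRCm38.p4 and GRCh38. The treatment of reads matching several copies, the annotation release and the strand setting are not given in the sources at hand. Gene names came from the table, and 98.9% of gene IDs were in GENCODE M21 (GRCm38), which gave coordinates, transcript lengths and sequences.

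The members and gene lists (38, of which 10 mark other cells) were chosen with earlier results of these data known. Counts of the 9 reporter libraries were fitted in R 4.3.3 with edgeR 4.0.16 (quasi-likelihood, TMM scaling, filterByExpr, 15375 genes), a mean per group and the replicate number as a block. The contrast was the mean of the positive groups minus double negative. Calls needed an adjusted p under 0.05 (Benjamini-Hochberg over all genes tested), and rose and fell refer to calls. Within-replicate differences use log2 CPM with a prior count of 2. Named genes were the LC3 and GABARAP family, Sqstm1 and Atg5, called protein-coding genes at 5 CPM or more whose groups do not overlap, completed to 10 in each direction by smallest p, up to 3 called members of a list, and the 2 most abundant members of a list, given in part. Other list members were picked after their values were seen. Gm6054 is outside this rule and was named because it was called.

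The block is part of the comparison. Deviations from group means correlated between -0.014 and 0.16 for libraries of the same number and between -0.16 and 0.10 otherwise. No libraries were duplicates. The procedure was tested on simulated counts. Alternatives were relative log expression factors, no filter, no block, summed positive libraries, each positive group alone, DESeq2 1.42.0, limma 3.58.1 voom with quality weights or a random replicate effect, and leaving out each library in turn. These 3 were added once the data had been seen: length and GC offsets (splines of 4 degrees of freedom), the 3 libraries apart left out, and double negative 1 left out with offsets. Figures used Python 3.11 and matplotlib 3.10.9.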

Additional observations from a re-analysis of the deposited data

Results flagged for a closer look

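In 6 of 80 genes examined, 1 of the 6 positive libraries lay far from the other positive ones, by Dixon's test of the gap to the nearest library over the whole range. Chance alone flags about 1 in 20 such groups. Double positive 2 was the high library for Vwf (124 CPM), Robo4 (65.4 CPM) and Igf2 (4.36 CPM), and it is the library that stood apart on component 2. Without it the log2 fold change of Vwf was 1.80 (edgeR adjusted p = 0.0223). Single positive 1 was the high library for Psmb5 (187 CPM), single positive 3 for Cd33 (0.313 CPM), and single positive 2 the low library for the pseudogene Gm6055 (4.62 CPM).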

How the results depend on the processing

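The main count of 2 called genes, both higher, was 319 without a filter on low counts (211 higher, 108 lower) and 781 in DESeq2 (431 higher, 350 lower), which gave Gm6054 no adjusted p. It was 1 with no replicate block, with a random replicate effect in voom, in double positive cells alone (each 1 higher, Vwf) and with length and GC offsets (1 higher, Gm6054). Voom with quality weights called 1 higher and 1 lower. It was 0 with positive libraries summed and with double negative 1 left out with offsets, and 9 with the 3 libraries apart left out (7 higher, 2 lower). Leaving out 1 library at a time gave 0 to 14 calls, 0 to 13 higher and 0 to 1 lower, with 14 without double negative 3. The adjusted p of Gm6054 was 0.0954 with no replicate block. Between the positive groups the count of 0 became 7 in DESeq2.

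Of 1669 gene values under alternatives, 1529 kept direction and call, 101 gained and 24 lost a call, and 15 changed sign. Those were Map1lc3a (-0.010 in voom with quality weights, -0.023 with the 3 libraries left out, -0.11 to 0.19 over the fits leaving out 1 library), Map1lc3b (-0.10 with offsets, -0.076 to 0.40 leaving out 1), Gabarapl2 (0.10 in double positive cells alone, 0.21 with offsets, 0.20 with double negative 1 also left out, -0.18 to 0.014 leaving out 1) and Atg5 (0.11 with offsets, 0.040 with double negative 1 also left out, 0.032 with the 3 libraries left out, -0.22 to 0.14 leaving out 1). The causes were not tested. By number, 8 of 9 libraries correlated best with a library of their own replicate number. Depth limits genes near 3 counts per library, such as H19, Cd33 and the rarer pseudogenes.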

Other observations

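Among 36 cell cycle genes, 1 was higher and 6 were lower in reporter-positive cells at an unadjusted p under 0.05 (9.64% and 6.47% of all genes), with a median log2 difference of 0.02 and 0 called. With length and GC offsets 0 were higher and 8 lower, and the median was -0.09. Ccne2, which encodes cyclin E2 of the G1 to S transition, stood at 64.0, 51.7, 52.7, 41.6, 39.0 and 37.2 CPM in positive libraries and at 95.8, 154 and 55.8 CPM in double negative ones (log2 difference -1.04, edgeR adjusted p = 0.164), and double negative 3 lay within the positive range. Among 19 genes of cholesterol synthesis, 3 were higher and 0 lower (median 0.09, and 0.03 with length and GC offsets). S100a8, a calcium-binding protein of myeloid cells, stood at 5.37, 4.13 and 4.69 CPM in RFP single positive, 14.6, 9.36 and 14.3 CPM in double positive and 17.5, 27.6 and 12.1 CPM in double negative libraries. The positive groups did not overlap for this gene, which was looked at after its values were seen (log2 difference -1.44, unadjusted p = 0.00302, adjusted p = 1.00).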
